A study of Mus musculus with 18 samples.

Results

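The mitochondrial genome of the mouse encodes 37 genes, and 10 of them are described here: the complex I subunits mt-Nd1, mt-Nd2, mt-Nd3, mt-Nd4 and mt-Nd5, the complex III subunit mt-Cytb, the complex IV subunits mt-Co1, mt-Co2 and mt-Co3, and the ATP synthase subunit mt-Atp6. They were taken by name from a count table of 43629 genes, and all 10 were found and passed the filter on low counts. Bulk RNA sequencing after poly(A) enrichment had been done on 18 neuronal cultures from mouse cortex, 6 in each of 3 groups. All cultures carried a lentiviral overexpression construct given at day 7 in vitro, and all were harvested 10 days later. In the mSc group, the control, this was mScarlet, a fluorescent protein. In the others it was Psmb5, a catalytic subunit of the standard proteasome, or Psmb8, its counterpart in the immunoproteasome. A protocol text common to all samples speaks of an Ifng construct, whereas the treatment tags give the 3 constructs above. The labels give neither the promoter of the constructs nor the strain, age or sex of the animals. They do not say whether libraries came from separate animals or dissections either, so p-values here reflect library-to-library spread, part of which may be technical.

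The proteins of these genes sit in the inner mitochondrial membrane and form the core of the machinery that burns oxygen to make ATP. Complex I takes electrons from NADH, complex III passes them on through cytochrome b, complex IV hands them to oxygen, and ATP synthase uses the proton gradient that results. Neurons draw most of their ATP from this chain. The mitochondrial genome is transcribed from both strands as long precursors, which are cut at the tRNAs between the genes, and most of the resulting messengers receive short poly(A) tails. The levels of the messengers therefore depend on transcription of the whole strand and on the stability of each RNA. Copies of mitochondrial DNA are also scattered through the nuclear chromosomes, and a recent copy can carry the same letters as the gene it came from.

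Such a copy bears on 6 of the 10 genes. In GENCODE's annotation of GRCm38, 7 pseudogenes lie side by side on the minus strand of chromosome 1, at chr1:24611535-24616197, over 4663 bases. Their transcripts matched the mitochondrial ones at 99.71% to 100% identity. Gm28661 matched 681 of the 684 bases of mt-Co2 (chrM:7013-7696), Gm28437 matched 783 of the 784 bases of mt-Co3 (chrM:8607-9390), and Gm10925 matched 678 of the 681 bases of mt-Atp6 (chrM:7927-8607), all without a mismatch. Gm28438 matched 345 of the 348 bases of mt-Nd3 (chrM:9459-9806) with 1 mismatch, T3C, counted from the first base of the gene, mitochondrial letter first. Gm28439 covered the first 876 of the 1378 bases of mt-Nd4 (chrM:10167-11544), and Gm29216 covered the last 483 of the 1545 bases of mt-Co1 (chrM:5328-6872) with 1 mismatch, A1066T. The 4 genes mt-Nd1 (chrM:2751-3707), mt-Nd2 (chrM:3914-4951), mt-Nd5 (chrM:11742-13565) and mt-Cytb (chrM:14145-15288) had no base in a copy of at least 99% identity. All 10 genes lie on the plus strand and are annotated as protein coding. A read that falls wholly within an identical stretch cannot be assigned to the mitochondrion or to chromosome 1 from its letters. How such reads were counted is not given in the sources used here.

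The following stretches, read from GENCODE's transcripts, show how little separates a gene from its copy; capitals mark the positions at which the members of a set differ. Positions 1 to 81 of mt-Nd3 hold the only difference from its copy.
mt-Nd3: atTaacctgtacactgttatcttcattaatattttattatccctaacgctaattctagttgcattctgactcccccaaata
Gm28438: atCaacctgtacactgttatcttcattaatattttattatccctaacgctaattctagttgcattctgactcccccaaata
Positions 1063 to 1143 of mt-Co1 hold the only difference in the part that is copied.
mt-Co1: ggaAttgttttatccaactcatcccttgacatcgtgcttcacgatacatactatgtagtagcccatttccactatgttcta
Gm29216: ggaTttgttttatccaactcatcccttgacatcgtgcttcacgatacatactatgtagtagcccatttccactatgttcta
Positions 445 to 525 of mt-Co2 are the same in Gm28661, while Gm13341, an older copy on chromosome 2 (chr2:22587291-22587962) with 95.9% identity over the gene, differs at 7 positions.
mt-Co2: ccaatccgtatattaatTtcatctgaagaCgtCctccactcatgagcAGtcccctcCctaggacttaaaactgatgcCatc
Gm28661: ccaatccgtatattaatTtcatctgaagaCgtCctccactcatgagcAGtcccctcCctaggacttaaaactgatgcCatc
Gm13341: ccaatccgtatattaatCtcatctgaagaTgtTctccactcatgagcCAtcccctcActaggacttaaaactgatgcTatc

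The 10 genes fell into 2 sets by level, and the split followed the copy. Levels are given as CPM, counts divided by the library's scaled total over tested genes, where 1 CPM stands for about 15.3 to 21.1 counts in a library, and per kilobase where genes are compared. The 4 genes with over 90% of their bases in the chromosome 1 copy had mean levels of 32.3 CPM per kilobase (mt-Atp6), 38.6 (mt-Co3), 49.7 (mt-Nd3) and 69.8 (mt-Co2) over the 18 libraries. The 6 other genes had mean levels of 1524 CPM per kilobase (mt-Nd4), 1811 (mt-Nd2), 2018 (mt-Nd5), 3251 (mt-Nd1), 4453 (mt-Cytb) and 7716 (mt-Co1). The lowest of the 6 thus stood 21.8-fold above the highest of the 4. The subunits mt-Co1 and mt-Co2, which the same enzyme needs in equal numbers, differed 110.5-fold per kilobase. In this order the library ranges of neighbours overlapped within each set, except between mt-Nd5 and mt-Nd1. The mean of mt-Co1 was 4.26-fold that of mt-Nd2. The set of 4 made up 0.42% of the counts of the 10 genes.

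**Figure D1:**
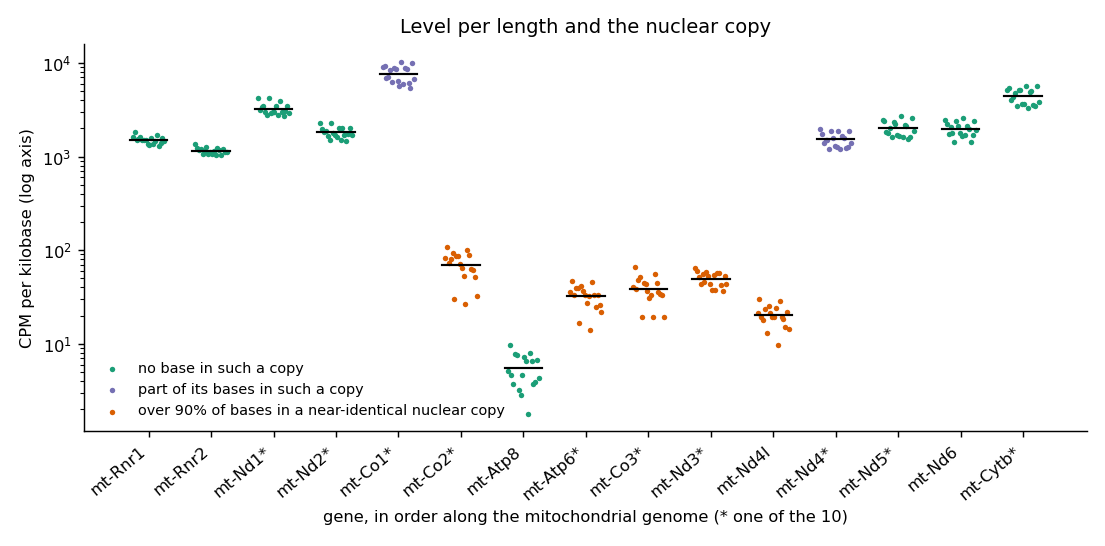
CPM per kilobase of transcript on a log axis for 15 mitochondrially encoded genes in their order along the mitochondrial genome, with 18 points per gene for the libraries and a bar for their mean; colours give the share of the gene in a near-identical nuclear copy. The 4 described genes with over 90% of their bases in the copy, and mt-Nd4l, lie between 20.1 and 69.8 CPM per kilobase on average. The 6 others of the 10 lie between 1524 and 7716. The lowest of the 15 is mt-Atp8 (5.46), coloured by a count of 0 bases in such a copy. That count leaves out its last bases, which overlap the first of mt-Atp6, where Gm10925 matches without a mismatch.

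Counts were assigned to the copies of all 4 genes, in similar number for mt-Co2, mt-Atp6 and mt-Co3 and in smaller number for mt-Nd3. Over all libraries mt-Co2 had 15278 counts and Gm28661 had 19095, mt-Atp6 had 7039 and Gm10925 had 8655, mt-Co3 had 9677 and Gm28437 had 6810, and mt-Nd3 had 5535 and Gm28438 had 747. The ratio of mt-Co2 to Gm28661 varied little between libraries, at 0.80 ± 0.05 (SD, n = 18), as did those of mt-Atp6 to Gm10925 (0.81 ± 0.08) and mt-Co3 to Gm28437 (1.43 ± 0.12). For mt-Nd3 the ratio to Gm28438 was 8.16 ± 3.24. The values of mt-Co2, mt-Co3, mt-Atp6 and mt-Nd3 are therefore reported as uncertain throughout: they are the counts that were assigned to these genes, not a measure of all their transcripts. The levels of mt-Co1 and mt-Nd4 can also hold less than the whole gene.

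The constructs were seen in the counts: Psmb5 lay at 238 to 561 CPM in the Psmb5 group and at 41.0 to 51.1 CPM elsewhere, and Psmb8 at 546 to 1056 CPM in the Psmb8 group and at 0.488 to 19.4 CPM elsewhere. Totals per library were 15337511 to 21074229 counts (mSc), 16055974 to 19640543 (Psmb5) and 16091906 to 18630396 (Psmb8). The neuronal markers Map2 (879 to 1422 CPM), Rbfox3 (148 to 203 CPM) and Slc17a7 (574 to 1026 CPM) were high in all libraries. The astrocyte genes Gfap (68.0 to 422 CPM) and Aqp4 (101 to 197 CPM) and the oligodendrocyte gene Mbp (29.4 to 98.4 CPM) were present as well, while the microglial genes P2ry12, Tmem119 and Cx3cr1 had 30, 1 and 25 counts over all libraries. In RNA of whole cultures, fewer cells of a type and less RNA per cell cannot be told apart.

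None of the 10 genes passed the test between constructs. In Psmb5 against mSc 0 of 10 was called by edgeR's quasi-likelihood test at an adjusted p of 0.05, where 0.00638% of the 15671 tested genes was called, in Psmb8 against mSc 0 of 10 (0.00638%), and in Psmb8 against Psmb5 0 of 10 (0.0128%). The only genes called were Psmb5 and Psmb8 themselves. None of the 10 had an unadjusted p under 0.05 in these fits, where 148, 340 and 209 of the 15671 tested genes had one. Replicate numbers 1 to 6 are shared by the groups and pair the libraries, and with the number as a block the count stayed at 0 of 10 in each comparison, where 0.00638%, 0.325% and 0.0383% of all tested genes were called. Of these, calls of lower genes made up 0%, 0.211% and 0.0255% of all tested genes. In the blocked fit mt-Nd3, mt-Co2 and mt-Co3 had an unadjusted p under 0.05 in both comparisons with mSc, 3 of 10 in each. Of the 15671 tested genes, 1077 had such a p in Psmb5 and 1675 in Psmb8 against mSc. None of the 10 had such a p in Psmb8 against Psmb5, where 1197 of all tested genes did. The 3 genes lie in the copied stretch, where the values are uncertain. DESeq2 called 0 of 10 in the 3 comparisons, as did limma-voom.

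Most of the fitted differences from mSc lay below 0. This held for 9 of 10 genes in Psmb5 and for 10 of 10 in Psmb8, where 49.5% and 49.7% of all tested genes lay below 0. The median log2 fold change of the 10 was -0.04 in Psmb5 and -0.06 in Psmb8, and the median of all tested genes was 0.00089 and 0.00045. The 4 genes of the copied stretch had medians of -0.22 and -0.20, and the 6 others of -0.04 and -0.05. Both comparisons share the mSc libraries, so their directions are not separate evidence. Many of the 10 genes also varied together over the libraries, as given below, so their signs are not 10 separate observations. In Psmb8 against Psmb5, 5 of 10 lay below 0, with a median of -0.00083.

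**Figure D2:**
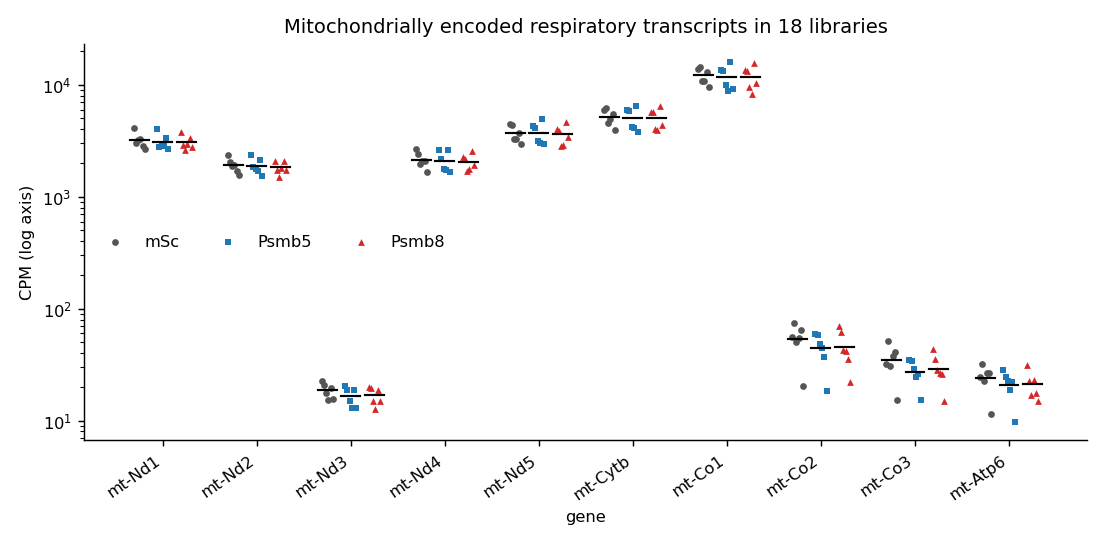
CPM on a log axis for each of the 10 genes, with 6 points per group for the libraries and a bar for the group mean. The 3 groups overlap for each gene, and mt-Nd3, mt-Co2, mt-Co3 and mt-Atp6 lie between 9.66 and 73.8 CPM while the others lie at 1514 CPM or more.

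Among the complex I subunits, mt-Nd1, which forms part of the quinone-binding end of the membrane arm, had 2659 to 4077 CPM (median 3101) in mSc, 2653 to 4052 (median 2860) in Psmb5, and 2611 to 3778 (median 2926) in Psmb8. These ranges overlapped almost wholly, and the highest library of each group had replicate number 1. Its log2 fold change was -0.04 (SE 0.12) in Psmb5 and -0.05 (SE 0.12) in Psmb8 against mSc. For mt-Nd2, mt-Nd4 and mt-Nd5, which lie along the proton-pumping part of the arm, group means were 1916 ± 275, 2149 ± 356 and 3680 ± 642 CPM in mSc (SD, n = 6). In Psmb5 they were 1893 ± 306, 2090 ± 434 and 3745 ± 828 CPM, and in Psmb8 1831 ± 221, 2063 ± 337 and 3616 ± 701 CPM. All of these means differed by less than 1 SD between groups. The log2 fold changes of the 3 genes against mSc lay between -0.07 (mt-Nd2 in Psmb8) and 0.025 (mt-Nd5 in Psmb5).

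The fifth complex I gene, mt-Nd3, codes for a small subunit with a loop that moves as the enzyme switches between active and resting forms. It had 15.3 to 22.6 CPM (median 18.6) in mSc, 12.9 to 20.2 (median 16.8) in Psmb5, and 12.8 to 19.8 (median 16.8) in Psmb8. The groups overlapped, but within each replicate number the mSc library was the highest of the 3. Its paired log2 difference was -0.19 ± 0.08 in Psmb5 (SD, 6 pairs, lower in 6 of 6) and -0.15 ± 0.09 in Psmb8 (lower in 6 of 6). Both comparisons use the same mSc libraries, and the share of all tested genes with such an order was not counted. Without the block the fitted values were -0.18 (SE 0.14, adjusted p = 0.9999) and -0.15 (SE 0.14, adjusted p = 0.9999) in edgeR's test. With it they were -0.19 (SE 0.05, adjusted p = 0.53) and -0.15 (SE 0.05, adjusted p = 0.28). Summed with its nuclear copy, mt-Nd3 gave -0.19 and -0.16.

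Complex III has a single mitochondrially encoded subunit, cytochrome b, which carries the haem groups that pass electrons between the enzyme's quinone sites. Its gene mt-Cytb had 3940 to 6244 CPM (median 5225) in mSc, 3763 to 6470 (median 5015) in Psmb5, and 3970 to 6479 (median 5010) in Psmb8. The lowest and highest libraries of the Psmb5 and Psmb8 groups enclosed nearly the whole mSc range. Its log2 fold change against mSc was -0.04 (SE 0.16) in both groups, and with the block -0.06 (SE 0.06) in Psmb5 and -0.05 (SE 0.06) in Psmb8.

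Of the complex IV subunits, mt-Co1 carries the site where oxygen is reduced and was the most abundant of the 10. It had 9570 to 14423 CPM (median 11969) in mSc, 8851 to 15987 (median 11618) in Psmb5, and 8361 to 15622 (median 11942) in Psmb8. The groups overlapped, with log2 fold changes against mSc of -0.03 (SE 0.17) in both. The subunit mt-Co2 receives the electrons from cytochrome c. It had 20.4 to 73.8 CPM (median 55.6) in mSc, 18.3 to 59.5 (median 46.5) in Psmb5, and 22.0 to 69.6 (median 42.6) in Psmb8, and its lowest library had replicate number 6 in each group. The log2 fold changes of mt-Co2 were -0.26 (SE 0.30) and -0.22 (SE 0.30), and with the block -0.28 (SE 0.10, adjusted p = 0.62 in edgeR's test) and -0.24 (SE 0.10, adjusted p = 0.37).

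The third complex IV subunit, mt-Co3, stabilises the oxygen-reducing core. It had 15.2 to 51.3 CPM (median 34.7) in mSc, 15.2 to 34.7 (median 27.4) in Psmb5, and 15.05 to 43.3 (median 27.3) in Psmb8. It had the largest fitted difference from mSc of the 10 genes, -0.34 (SE 0.26) in Psmb5 and -0.25 (SE 0.26) in Psmb8. With the block these were -0.34 (SE 0.10, adjusted p = 0.53) and -0.25 (SE 0.10, adjusted p = 0.37). Without the libraries of replicate number 1, mt-Co3 was called in Psmb8 against mSc in the blocked fit (-0.39, SE 0.08, edgeR adjusted p = 0.044). In number 1 the mt-Co3 difference ran the other way, with 31.9 CPM in the mSc library against 34.7 (Psmb5) and 43.3 (Psmb8). Its nuclear copy Gm28437 lay at -0.24 in Psmb5 and -0.23 in Psmb8 against mSc, with no call.

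The ATP synthase subunit mt-Atp6 forms the channel through which protons pass to turn the rotor. It had 11.4 to 32.0 CPM (median 25.5) in mSc, 9.66 to 28.03 (median 22.5) in Psmb5, and 14.9 to 31.5 (median 20.2) in Psmb8, with overlap of the groups. Its log2 fold changes were -0.19 (SE 0.24) in Psmb5 and -0.18 (SE 0.24) in Psmb8. Single pairs spanned -0.53 to 0.20 in Psmb5, and -0.60 to 0.39 in Psmb8, so the pairs disagreed in direction.

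**Figure D3:**
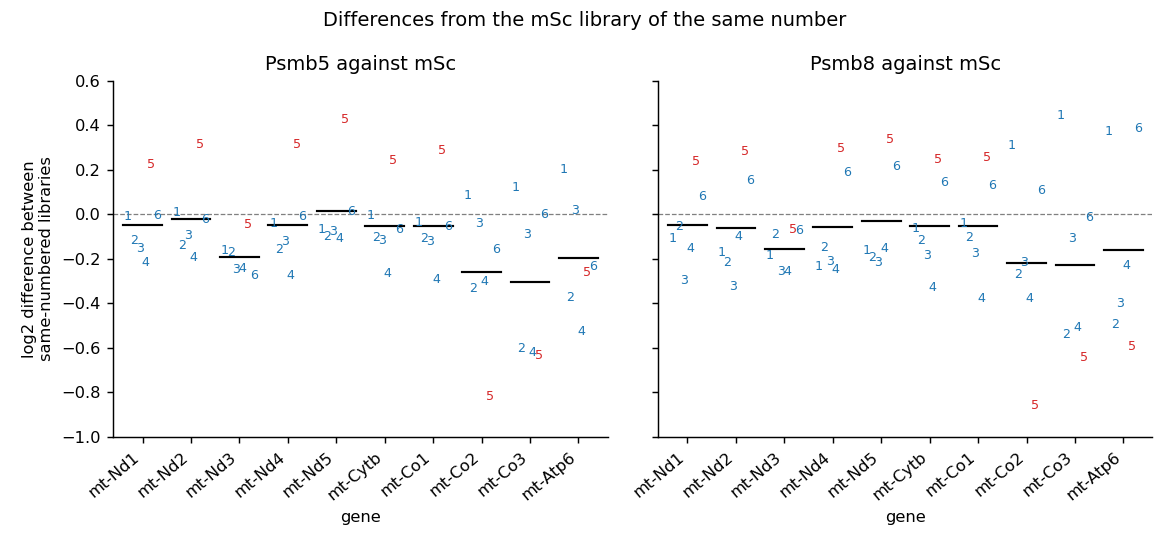
Log2 difference of each gene between the Psmb5 (left) or Psmb8 (right) library and the mSc library of the same replicate number; digits are the replicate numbers, number 5 is in red, bars are the means over 6 pairs and the dashed line is 0. For mt-Nd3 all 6 digits lie below the line in both panels, while number 5 lies above the line for the 6 genes with high levels and below it for mt-Nd3, mt-Co2, mt-Co3 and mt-Atp6.

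The differences between pairs had a pattern of their own. In replicate number 5, mt-Co1 lay at 13082 CPM in mSc and at 15987 and 15622 CPM in Psmb5 and Psmb8. In the same libraries mt-Co2 lay at 64.6 CPM in mSc and at 36.6 and 35.6 CPM in the other groups. Within this number the differences of mt-Co1 and mt-Co2 thus had opposite signs. All 6 genes of high level lay above mSc there in both groups; in number 6 they did so in Psmb8 only. The share of all counts in the 10 genes was 2.83 ± 0.46% in mSc, 2.78 ± 0.61% in Psmb5 and 2.76 ± 0.56% in Psmb8 (SD, n = 6). Over the pairs the share differed by -0.04 ± 0.34 percentage points in Psmb5 and -0.07 ± 0.36 in Psmb8, with differences of 0.60 and 0.52 percentage points in number 5. These mean differences were smaller than the spread between pairs.

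Replicate numbers were compared next, with the construct kept in the fit. All 10 genes differed between replicate numbers by edgeR's quasi-likelihood test, where 64.3% of all tested genes did. Adjusted p-values ran from 1.0e-07 (mt-Co2) to 9.0e-04 (mt-Nd2). A call between numbers was thus common among tested genes in general. Without number 1 the count was 8 of 10, as mt-Nd1 (adjusted p = 0.097) and mt-Nd2 (adjusted p = 0.060) were no longer called; over all genes 8787 of 15723 were called in that fit, against 10078 of 15671 with all numbers. What a number stands for is not stated in the labels. By number the share of all counts in the 10 genes averaged 3.12% in number 1, 3.25% in 2, 2.36% in 3, 2.37% in 4, 3.40% in 5 and 2.25% in 6, with SDs over the 3 constructs of 0.11 to 0.33 percentage points.

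**Figure D4:**
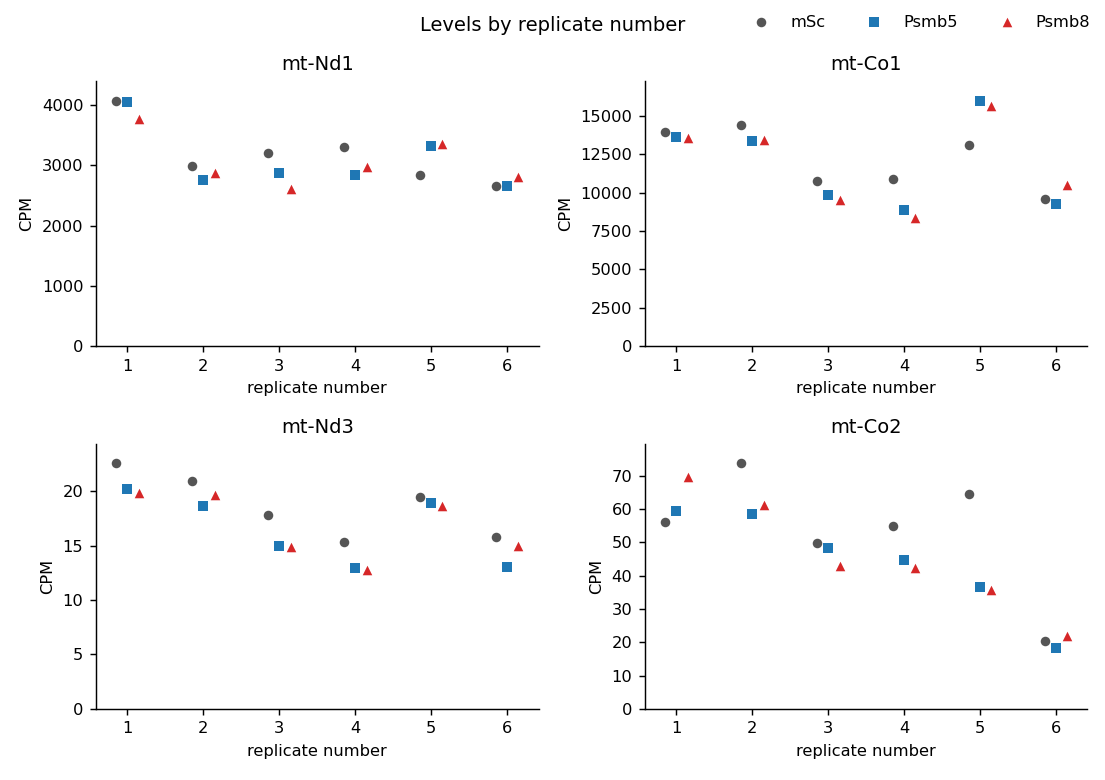
CPM of mt-Nd1, mt-Co1, mt-Nd3 and mt-Co2 by replicate number, with 1 point per library; axes start at 0, and colour and shape give the group. The 3 libraries of number 1 are the highest for mt-Nd1, and the 3 of number 6 are the lowest for mt-Co2.

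Some genes had all 3 libraries of a number beyond the other 15. For mt-Nd1 the libraries of number 1 had 4077, 4052 and 3778 CPM, above the highest of the other 15 libraries (3355 CPM). It was 1 of 10 genes with all libraries of number 1 above the rest, where 5.96% of all tested genes were, so 1 of 10 is near the general share. The summed level of 10 astrocyte markers was 4374 to 5214 CPM in number 1 and 1427 to 2031 CPM in the others. All 10 markers differed between numbers and none was at 0. The summed level of 11 neuronal markers was 5470 to 5581 CPM in number 1 and 4317 to 5431 CPM in the others, and that of 11 vascular and fibroblast markers, with Cldn5 at 0, was 41.4 to 54.9 CPM and 14.2 to 31.5 CPM. Their part in the level of mt-Nd1 was not tested.

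At the other end, 3 of 10 genes had all libraries of number 6 below the other 15, where 0.887% of all tested genes did. The libraries of number 6 had 20.4, 18.3 and 22.0 CPM of mt-Co2, against at least 35.6 CPM elsewhere. They had 15.2, 15.2 and 15.05 CPM of mt-Co3, against at least 24.5 CPM, and 11.4, 9.66 and 14.9 CPM of mt-Atp6, against at least 17.0 CPM. Against the mean of the other libraries the difference was -62.0% for mt-Co2, -54.5% for mt-Co3 and -50.2% for mt-Atp6. All 3 lie in the copied stretch, and their copies were low in the same libraries: Gm28661 had 23.2, 25.8 and 30.7 CPM, against at least 41.7 CPM elsewhere. The 6 genes of high level differed by -15.2% to -24.3% in number 6, and their libraries overlapped the others. The summed level of 12 microglial genes was 49.9 to 51.7 CPM in number 6 and 48.0 to 50.8 CPM in number 3, against 34.3 to 44.9 CPM in the rest; its part in these levels was not tested. No other gene of the 10 had all libraries of a number beyond the other 15. All tested genes did so below the rest in 2.97% (number 1), 2.86% (2), 0.325% (3), 2.97% (4) and 1.63% (5), and above it in 1.56% (2), 0.345% (3), 3.33% (4), 1.18% (5) and 1.47% (6). The numbers 1 and 6 were chosen for description after the values were seen.

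Over the 18 libraries some genes varied together, and they are grouped here with the values known and without a test. The following Pearson correlations of log2 CPM describe 18 libraries that share constructs and replicate numbers. Those among mt-Nd4, mt-Nd5, mt-Cytb and mt-Co1 were 0.93 to 0.98, and that of mt-Nd1 with mt-Nd2, the first 2 messengers behind the rRNAs, was 0.93. Between these 2 groups they were 0.57 to 0.90, the highest for mt-Nd2 with mt-Nd4, so the 2 groups were not sharply apart. Those among mt-Co2, mt-Co3 and mt-Atp6 were 0.93 to 0.97, those with their nuclear copies 0.94 to 0.99, and those with the 6 genes of high level 0.42 to 0.65. Of the 4 genes in the copied stretch, mt-Nd3 behaved otherwise: it followed mt-Nd4, mt-Nd5, mt-Cytb and mt-Co1 (0.84 to 0.90) more closely than mt-Co2, mt-Co3 and mt-Atp6 (0.59 to 0.63) or its own copy (0.45). The copy of mt-Nd3 had few counts, 1.02 to 3.62 CPM per library, which may limit the last value. With mt-Co2, mt-Co3 and mt-Atp6 the same copy had correlations of 0.83, 0.80 and 0.81.

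**Figure D5:**
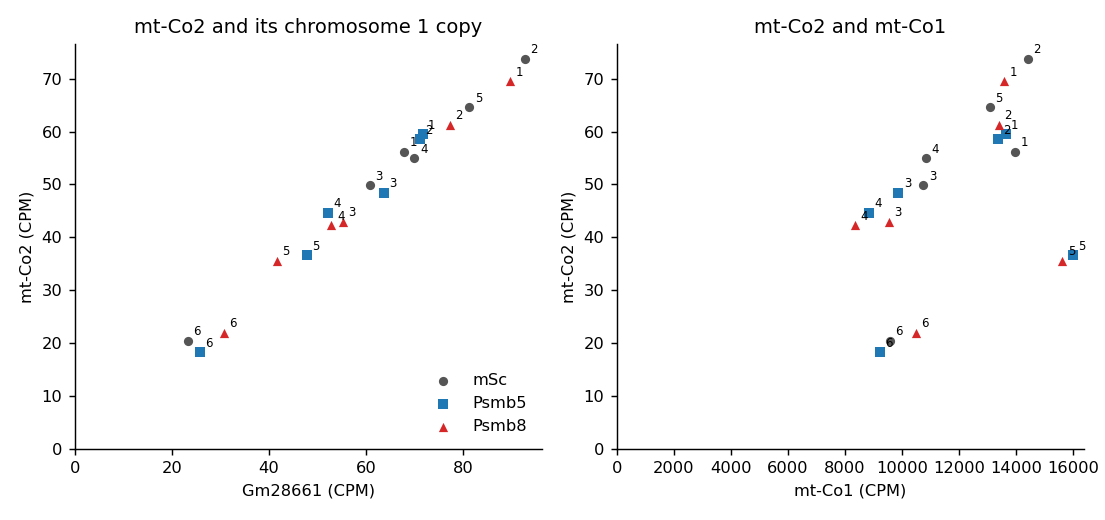
CPM of mt-Co2 against CPM of its nuclear copy Gm28661 (left) and against mt-Co1 (right) in 18 libraries; digits are the replicate numbers, colour and shape give the group, and axes start at 0. The points lie near 1 line on the left, while on the right the libraries of number 6 and the Psmb5 and Psmb8 libraries of number 5 lie low for their mt-Co1 level.

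The makeup of the pool was steady for the genes of high level. Of the counts of the 10 genes, mt-Co1 took 42.5 ± 1.9% (SD, n = 18), mt-Cytb 18.2 ± 0.63%, mt-Nd5 13.2 ± 0.44%, mt-Nd1 11.3 ± 1.4%, mt-Nd4 7.54 ± 0.28% and mt-Nd2 6.81 ± 0.69%. The coefficient of variation of these shares was 3.36% for mt-Nd5 and 12.6% for mt-Nd1, the least and the most variable of the 6. For mt-Co2, mt-Co3 and mt-Atp6 it was 30.0%, 26.6% and 23.8%, and for mt-Nd3 8.03%. Group means of the mt-Co1 share were 42.7%, 42.3% and 42.6% in mSc, Psmb5 and Psmb8, which differ by less than the SD within groups (1.6 to 2.4 percentage points).

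Of the other mitochondrially encoded genes, 17 of 27 were tested and 0 was called in any comparison, with or without the block. Against mSc 11 lay below 0 in Psmb5 and 14 in Psmb8, with median log2 fold changes of -0.11 and -0.09. The 12S rRNA gene mt-Rnr1, part of the small mitochondrial ribosomal subunit, ranged from 1246 to 1733 CPM over all libraries. Within each replicate number its mSc library was the highest, an order whose share among all tested genes was not counted. The log2 fold changes of mt-Rnr1 were -0.16 (SE 0.07) in Psmb5 and -0.11 (SE 0.07) in Psmb8. With the block they were -0.16 (SE 0.04, adjusted p = 0.31 in edgeR's test) and -0.11 (SE 0.04, adjusted p = 0.24). The 16S rRNA gene mt-Rnr2 lay at -0.11 (SE 0.07) and -0.05 (SE 0.07). The remaining complex I genes split as the 10 did: mt-Nd4l, copied in full but for its last 3 bases as Gm10222, had 20.1 CPM per kilobase, and mt-Nd6, the only messenger of the opposite strand, had 1972. Its last bases overlap those of mt-Nd5, and without the strand setting of the counting reads of mt-Nd6 cannot be told from antisense reads. The second ATP synthase gene mt-Atp8 lies between mt-Co2 and mt-Atp6 and had 5.46 CPM per kilobase, or 357 counts in all. It had no match of 100 bases or more among the annotated chromosome 1 copies, and the letters between those copies were not read. Its last bases (chrM:7766-7969) overlap the first of mt-Atp6 (chrM:7927-8607), which Gm10925 matches without a mismatch.

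The nuclear copies themselves, 15 of 17 of them tested, had 0 calls in any comparison. Of these, 13 lay below 0 in Psmb5 and 13 in Psmb8 against mSc, with medians of -0.25 and -0.19. Between replicate numbers 12 of the 15 were called, where 64.3% of all tested genes were.

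The nuclear partners of the 10 genes had no calls either. None of the 36 nuclear subunits of complex I was called in any comparison, nor any of the 9 of complex III, the 12 of complex IV or the 16 of complex V, with or without the block. In Psmb8 against mSc 33 of 36, 9 of 9, 10 of 12 and 15 of 16 lay above 0, with median log2 fold changes of 0.05, 0.07, 0.05 and 0.06. All tested genes had a median of 0.00045, with 49.7% below 0. In Psmb5 against mSc 19 of 36, 5 of 9, 4 of 12 and 9 of 16 did, with medians of 0.0017, 0.02, -0.01 and 0.0050. In Psmb8 the fitted differences of the nuclear subunits thus lay mostly above 0 and those of the 10 mitochondrial genes below it. All of these genes were read in the same libraries, so their signs are not separate observations. For the 6 mitochondrial genes of high level the fitted differences were -0.07 to -0.03, with SEs of 0.11 to 0.17. With the block they were -0.06 to -0.03, with SEs of 0.05 to 0.06. Each of these 6 lay above 0 in some fit with libraries left out. The values of the 4 others are uncertain. In the same comparison 8 of 11 neuronal markers lay above 0 (median 0.05), while 8 of 10 astrocyte markers (median -0.07) and 9 of 9 tested oligodendrocyte markers (median -0.04) lay below it, with no call. The part of the cell types in these differences was not tested. Without the block, the smallest p in Psmb8 against mSc were those of Ndufa11, an accessory subunit of complex I (0.22, SE 0.07), and Uqcrb of complex III (0.15, SE 0.07). For complexes IV and V they were those of Cox5a (0.11, SE 0.06) and Atp5g1, a gene of the rotor ring of ATP synthase (0.12, SE 0.06). Each had an adjusted p of 0.9999 in edgeR's test. With the block they were those of Ndufa11 (0.21, SE 0.06), Uqcrq (0.14, SE 0.04), Ndufa4 (0.13, SE 0.04) and Atp5g1 (0.12, SE 0.04). Their edgeR adjusted p were 0.14, 0.17, 0.20 and 0.21. In that fit 7 of 36, 4 of 9, 2 of 12 and 4 of 16 subunits had an unadjusted p under 0.05, as had 1675 of 15671 tested genes. In Psmb5 against mSc without the block the smallest p were those of Ndufs6 (0.11, SE 0.08), Uqcrb (0.15, SE 0.07), Cox4i1 (-0.06, SE 0.08) and Atp5j (0.05, SE 0.04).

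Genes that make, process and read mitochondrial RNA were close to mSc in both groups, and none was called in any comparison. Of 20 tested genes of mitochondrial transcription and DNA maintenance, 11 lay below 0 in Psmb5 and 12 in Psmb8, with medians of -0.0080 and -0.01. Rrm2b, which supplies nucleotides for mitochondrial DNA, had the smallest p in both (0.16, SE 0.07, and 0.17, SE 0.07). Of 22 genes of RNA processing, stability and decay, 12 and 16 lay above 0, with medians of 0.0063 and 0.04. Slirp, which with Lrpprc stabilises mitochondrial messengers, lay at 0.17 (SE 0.08) in Psmb8. Of 76 tested genes of the mitochondrial ribosome 43 and 51 lay above 0 (medians 0.02 and 0.03), and of 15 regulators of mitochondrial biogenesis 9 and 9 (medians 0.02 and 0.04). Mrps18a, a protein of the small subunit, lay at -0.16 (SE 0.07) in Psmb8, and Sirt1, a deacetylase that acts on Ppargc1a, at -0.13 (SE 0.07). Between replicate numbers 6 of 20 genes of transcription and DNA maintenance, 10 of 22 of RNA processing, 33 of 76 of the ribosome and 6 of 15 of the regulators were called, against 64.3% of all tested genes, while 20 of 36, 7 of 9, 11 of 12 and 13 of 16 nuclear subunits of complexes I, III, IV and V were.

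The nuclear genes whose log2 CPM was most like the mean of the 10 genes over 18 libraries, among 10035 genes with a mean of at least 10 CPM, were Snhg11 (Pearson r = 0.93), Slc16a11 (0.89), Echdc2 (0.89), Cacna2d2 (0.88) and Pld2 (0.88). The most unlike were Atmin (-0.92), Hdlbp (-0.91), Bmp2k (-0.89), Sox3 (-0.89) and Nkain1 (-0.88). Snhg11 is a long noncoding RNA of neurons, at a mean of 2023 CPM. The libraries behind these values share replicate numbers, and all of these genes differed between numbers. The summed level of 9 long noncoding RNAs, many of them kept in the nucleus, was 10377 to 10977 CPM in number 4 and 12511 to 14740 CPM in the others. Its part in the levels of the 10 genes was not tested. Of the list of RNAs without a poly(A) tail, only Rn7sk was tested, at a mean of 0.726 CPM.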

How the data were processed

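Gene counts of 18 poly(A)-enriched libraries were used. The authors deposited 1 table of whole-number read counts per Ensembl gene, not normalized and not pooled, per the file headers and values. STAR 2.4, DESeq2 and the builds GRCm39 and mm10 are named in the submitters' processing notes without a role; which counter was used, with what strand setting and treatment of multi-mapping reads, is not given in the sources used here. Columns were matched to samples by title. Of 43629 IDs, 42462 were given a symbol.

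Testing used edgeR 4.0.16 under R 4.3.3 (filterByExpr by group, 15671 genes; TMM; quasi-likelihood test, 1 fit of all libraries by group; Benjamini-Hochberg over all tested genes, threshold 0.05). Standard errors come from the F statistic. At 15337511 to 21074229 counts per library, 1 CPM before scaling is about 15.3 to 21.1 counts, so counting error limits genes of low level. The replicate-number test is an F test of the number's coefficients in the fit with group and number. Numbers pair the libraries: deviations from group means correlated by 0.45 to 0.73 over all 18 same-numbered pairs of libraries (mean 0.60) and by -0.54 to 0.65 over 90 others (mean -0.12), and 16 of 18 libraries correlated best with their own number. Coordinates and transcripts are GENCODE M21 on GRCm38, which may differ from the build of the counts; copies were found with BLAST 2.17.0 (at least 90% identity over 100 bases; near-identical: 99%). The tests were tested on simulated data. Alternatives were limma-voom 3.58.1, DESeq2 1.42.0 and its size factors, no filter, mitochondrial genes left out of library sizes, a minimum of 5 CPM, only the groups compared, the block, nuclear copies summed with the genes, and libraries left out.

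The members and lists were chosen with earlier results of these data known. Named were the 10 genes, the other mitochondrially encoded messengers and rRNAs, their nuclear copies, per list the member with the smallest p where none was called, and the 5 genes most and least like the 10.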

Additional observations from a re-analysis of the deposited data

How the results depend on the processing

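The count of calls was 0 in each comparison with limma-voom, DESeq2 or its size factors, mitochondrial genes left out of library sizes, either filter, only the groups compared, the replicate block and copies summed. Left-out libraries gave 0 to 1, the 1 being mt-Co3 in Psmb8 against mSc in the fit with the replicate block without number 1. Counts over all tested genes were 1, 1 and 2 in Psmb5 against mSc, Psmb8 against mSc and Psmb8 against Psmb5. With the replicate block they were 1, 51 and 6, and with DESeq2 1, 2 and 4. Over left-out libraries, with and without the block, they ranged from 1 to 3, from 1 to 59 and from 2 to 20. Of the log2 fold changes of the 10 genes, 6 changed sign under a setting that keeps all libraries and 264 did not. All 6 concern Psmb8 against Psmb5 and values near 0: mt-Cytb (-0.0025) became 0.0036 with the block and 0.0069 with limma-voom, mt-Co1 (0.00083) became -0.00026 with DESeq2 and with its size factors and -0.0056 without a filter, and mt-Atp6 (0.0047) became -0.0027 without a filter. The cause was not tested.

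Leaving out libraries moved more signs. In Psmb5 against mSc the ranges that crossed 0 were -0.14 to 0.038 for mt-Nd1, -0.093 to 0.049 for mt-Nd2, -0.12 to 0.031 for mt-Nd4, -0.072 to 0.087 for mt-Nd5, -0.12 to 0.033 for mt-Cytb and -0.14 to 0.036 for mt-Co1. In Psmb8 against mSc they were -0.12 to 0.030, -0.13 to 0.0021, -0.13 to 0.013, -0.11 to 0.037, -0.13 to 0.019 and -0.13 to 0.049 for the same genes. In Psmb8 against Psmb5 all 10 crossed 0: mt-Nd1 -0.076 to 0.084, mt-Nd2 -0.10 to 0.028, mt-Nd3 -0.030 to 0.098, mt-Nd4 -0.091 to 0.053, mt-Nd5 -0.14 to 0.047, mt-Cytb -0.087 to 0.081, mt-Co1 -0.095 to 0.11, mt-Co2 -0.12 to 0.18, mt-Co3 -0.051 to 0.23 and mt-Atp6 -0.14 to 0.11. Against mSc, mt-Nd3, mt-Co2, mt-Co3 and mt-Atp6 stayed below 0 in all 24 left-out fits of each comparison, but their sizes moved. In Psmb5 they ranged from -0.25 (without Psmb5 number 1) to -0.12 (without Psmb5 number 4) for mt-Nd3, from -0.43 (without mSc number 6) to -0.10 (without Psmb5 number 6) for mt-Co2, from -0.50 (without mSc number 6) to -0.20 (without mSc number 2) for mt-Co3 and from -0.33 (without mSc number 6) to -0.04 (without Psmb5 number 6) for mt-Atp6. In Psmb8 they ranged from -0.20 (without Psmb8 number 1) to -0.08 (without Psmb8 number 4), from -0.39 (without mSc number 6) to -0.08 (without Psmb8 number 6), from -0.40 (without mSc number 6) to -0.10 (without mSc number 2) and from -0.33 (without Psmb8 number 1) to -0.08 (without mSc number 2) for the same genes.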

Other observations

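The 6 genes of high level and the 3 genes mt-Co2, mt-Co3 and mt-Atp6 were also set against the nuclear genes separately, a split made after the data were seen, with no test. Over 18 libraries that share replicate numbers, the log2 CPM most like the mean of the 6 was that of Ntsr2 (Pearson r = 0.92), Clk1 (0.92), Snhg11 (0.91), Pxdn (0.90) and Gdpd2 (0.90), and the most unlike that of Tnfrsf12a (-0.93), Acbd3 (-0.93), Srpr (-0.92), Sqstm1 (-0.91) and Ikbkg (-0.90). For mt-Co2, mt-Co3 and mt-Atp6 the most like were Tspan15 (0.85), Gusb (0.84), Mpnd (0.81), Urod (0.80) and Ndufb4 (0.80), and among the most unlike were Gpr180 (-0.85), Irf1 (-0.82), Ube2l6 (-0.82) and Nkain1 (-0.82).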
